A study of Homo sapiens with 16 samples.

Results

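The mitochondrial ribosomal protein genes were taken as every gene whose symbol starts with MRPL or MRPS followed by a number and, in some, a letter A to C. Of 60662 gene identifiers in the count tables, 78 carried such a symbol, 49 of the large subunit (MRPL) and 29 of the small subunit (MRPS). RNA-seq was done on the established human T cell line Jurkat E6-1, which the series calls wild type. The peroxide group of 8 libraries came from cells suspended in phosphate-buffered saline (PBS) with hydrogen peroxide (10 µM per 1e6 cells) and harvested 4 h later, and the control group of 8 libraries came from untreated cells at 0 h. No group held in saline for 4 h without peroxide was analysed here, so time, medium and peroxide cannot be told apart. The names of the deposited tables put 4 libraries of each group in batch 1 and 4 in batch 2. The labels call the libraries biological replicates and do not say whether they came from separate cultures, so p-values measure the spread between these libraries, which may be technical.

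The mitochondrial ribosome translates the few messenger RNAs that are copied from mitochondrial DNA, all of which encode subunits of the respiratory chain and of ATP synthase. Its ribosomal RNAs are mitochondrial transcripts, but each of its proteins is encoded in the nucleus, made in the cytosol and imported. The large subunit holds the peptidyl transferase centre and the tunnel through which the new peptide leaves, and the small subunit binds the messenger RNA and decodes it. Some of the proteins are kin of bacterial ribosomal proteins and the others are specific to mitochondria.

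Libraries had 7378435 to 10090165 reads in genes with peroxide and 5556553 to 15720881 in controls. T cell markers were present in both groups: all 9 of the list (such as CD3E, CD5 and LCK) averaged over 1 CPM (read counts scaled to library size with TMM factors), and summed to 3118 to 3825 CPM with peroxide and 3259.5 to 3902 CPM in controls, with 3 of the 9 called lower and 0 higher. Of 4 monocyte markers CD14 alone averaged over 1 CPM, with sums of 2.94 to 7.37 CPM with peroxide and 0.229 to 1.16 CPM in controls, and 1 of the 4 was called higher. Of 5 B cell markers CD79A alone averaged over 1 CPM, with sums of 31.4 to 55.3 CPM with peroxide and 29.9 to 50.5 CPM in controls and no marker called. No epithelial or erythroid marker of the lists (4 and 3 genes) averaged over 1 CPM. Reads that name no gene made up 51.2% ± 3.07 of counted reads with peroxide and 46.8% ± 4.53 in controls (SD, n = 8 each), with an exact two-sided permutation p of 0.0430, or 0.129 when adjusted over 6 library measures. Transcripts encoded in mitochondrial DNA made up 1.77% ± 0.304 of reads in genes with peroxide and 2.98% ± 0.219 in controls (exact permutation p = 0.000155, the smallest possible, adjusted 0.000932). Whether these measures had a part in the results on the ribosomal proteins was not tested. In bulk RNA, fewer cells and less RNA per cell cannot be told apart.

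Transcripts of the mitochondrial ribosome changed little and in both directions after peroxide. Of 77 genes tested, 18 rose and 14 fell (edgeR's quasi-likelihood test with Benjamini-Hochberg adjustment over all 14092 genes, adjusted p under 0.05). The balance depended on the settings: 7 rose and 23 fell with libraries scaled by total counts, 7 and 18 with no filter on low counts, 8 and 8 without the batch term, 6 and 21 in batch 1 alone and 18 and 2 in batch 2 alone. Among all genes, 2822 rose and 4375 fell with total counts, and 5150 and 4326 with no filter. Without the batch term 2534 of all genes rose and 2454 fell. In batch 1 alone 2858 of all genes rose and 2410 fell, and in batch 2 alone 2800 and 2752. The calls of the pooled test made up 41.6% of the 77 members, against 48.3% of all genes tested, where 24.1% rose and 24.3% fell. The log2 fold change of peroxide over control ran between -0.80 ± 0.08 (SE) for MRPL17 and 0.42 ± 0.08 for MRPL54, so no member reached a 2-fold change, whereas 965 genes did so among all those called. The median log2 fold change was 0.01 for the ribosomal proteins and -0.01 for all genes, and the median of its size was 0.15 and 0.23. In 2 members the 8 peroxide and 8 control libraries did not overlap, MRPL45 above and MRPL17 below, which is 2.60% of the 77 against 11.3% of all genes.

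**Figure D1:**
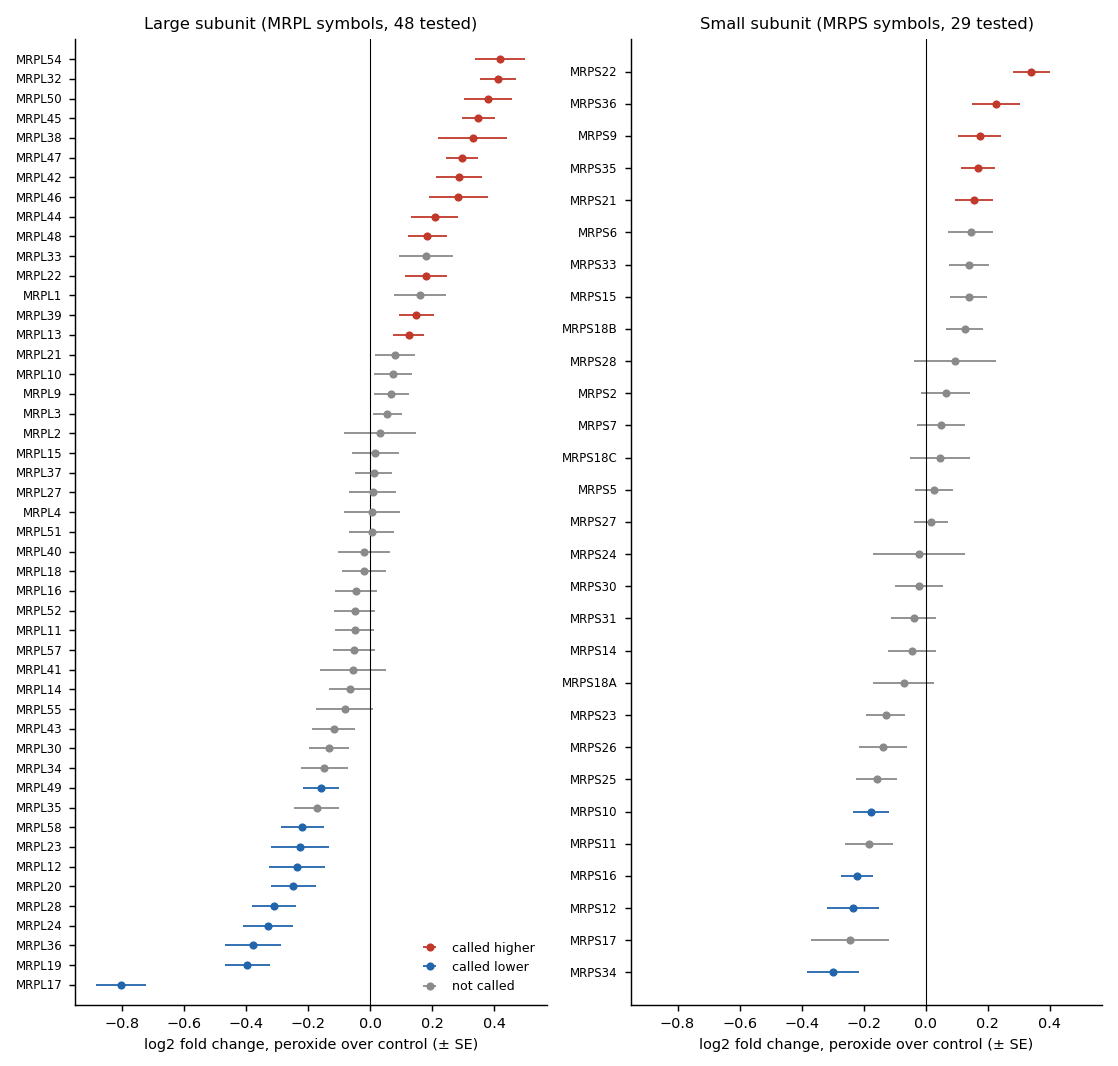
Log2 fold change of peroxide over control (horizontal axis, bars are the SE of the fit over 8 peroxide and 8 control libraries) for each of the 48 large and 29 small subunit genes tested, ordered by value, with called rises in red, called falls in blue and the rest in grey. Most genes lie within 0.4 of 0 on either side, and MRPL17 at -0.80 stands apart on the left.

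Both subunits had rises and falls. In the large subunit 13 of 48 genes rose and 10 fell (47.9% called), with a median log2 fold change of 0.01, and in the small subunit 5 of 29 rose and 4 fell (31.0% called), with a median of 0.02. The difference between these shares was not tested. Subunits were taken from the symbols. The small subunit thus counts MRPS30 and MRPS18A, which sit in the large subunit, and MRPS36, now assigned to another complex. It leaves out small subunit proteins without an MRP symbol, such as DAP3 and PTCD3. With libraries scaled by total counts 6 rose and 14 fell in the large subunit and 1 rose and 9 fell in the small, and with no filter it was 6 and 12 and then 1 and 6. Leaving out 1 library gave 3 (control 1, among others) to 7 (control 2) rises and 3 to 7 (peroxide 8) falls in the small subunit. Grouped by descent, 12 of 29 genes specific to mitochondria rose and 3 fell (51.7% called). Of 48 genes with bacterial kin, 6 rose and 11 fell (35.4% called). Of all genes tested 24.1% rose and 24.3% fell. Within the large subunit the split was 9 rises and 2 falls of 18 mitochondria-specific genes, and 4 rises and 8 falls of 30 with bacterial kin. Within the small subunit it was 3 rises and 1 fall of 11, and 2 rises and 3 falls of 18. These splits by descent were not tested and not examined under other scalings. The last member, MRPL53, had 0 reads in all 16 libraries, and 45.2% of its exon bases in GENCODE release 29 overlap another gene, CCDC142. What part this overlap had in the count of 0 was not tested.

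Short sequence motifs, which were not used to choose the genes, were found in part of the promoters of the ribosomal proteins. In RefSeq's promoter windows on GRCh38.p14, 250 bases before to 50 after each start, 69 of the 78 genes were matched, and each motif was searched on both strands. The ETS motif CCGGAAG occurred in 30 genes (43.5%), against 12.2% of the 27305 genes in the table, and the YY1 motif AAGATGGCG in 13 (18.8%), against 2.14%. The NRF1 motif GCGCANGCG was found in 14 genes (20.3%), against 9.02%, and the E-box CACGTG in 9 of the 69, against 8.77%. The 27305 genes were not limited to the 14092 tested here. Whether the shares among the members differ from those of other expressed genes was not tested. In 20 of the 69 genes none of the 4 motifs was found. NRF1, the ETS factor GABPA and YY1 are known as activators of nuclear genes for mitochondrial proteins. Among called genes with a window, the ETS motif was in 6 of 16 that rose and 7 of 13 that fell. The NRF1 motif was in 4 and 3 of these, and the YY1 motif in 6 and 2. Of 39 members not called, 16 held the ETS motif, 7 the NRF1 motif and 5 the YY1 motif. Differences between these groups were not tested. A match describes the letters in the window and does not show a bound site.

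Within the large subunit MRPL54, MRPL32, MRPL50 and MRPL45 had the largest rises. MRPL54 (ENSG00000183617.5), a mitochondria-specific protein, had 28.5 to 36.3 CPM (median 32.7) in the peroxide libraries, against 19.4 to 28.7 CPM (median 23.3) in the controls. Its groups overlapped by a single peroxide library that lay below the highest control. The log2 fold change was 0.42 ± 0.08 (adjusted p = 0.000199), and it was 0.35 in batch 1 and 0.49 in batch 2. MRPL32 (ENSG00000106591.4), whose cleavage by a protease of the inner membrane precedes ribosome assembly in yeast and mouse, had 73.3 to 100.3 CPM (median 82.2) in the peroxide libraries, against 55.4 to 78.4 CPM (median 62.1) in the controls. Within each batch every peroxide library lay above every control. The fold change was 0.41 ± 0.06 (adjusted p = 4.76e-06). MRPL45, which in the human ribosome sits by the tunnel exit and touches the inner membrane, had 81.1 to 99.3 CPM (median 87.6) with peroxide, against 65.3 to 75.2 CPM (median 69.6) in the controls, with no overlap, and a fold change of 0.35 ± 0.05 (adjusted p = 1.72e-05). MRPL50, mitochondria-specific, had 34.2 to 55.7 CPM (median 37.2) with peroxide, against 21.8 to 40.9 CPM (median 32.3) in the controls, and overlapped between groups. Its fold change was 0.38 ± 0.08 (adjusted p = 0.000396), and the call was lost without the batch term (adjusted p = 0.0526) and in batch 1 alone (0.0570). The other 9 rises, MRPL38, MRPL47, MRPL42, MRPL46, MRPL44, MRPL48, MRPL22, MRPL39 and MRPL13, had fold changes of 0.13 to 0.33. The sequences upstream of the MRPL54 and MRPL32 starts are shown because these are the largest rises of the subunit. Capitals mark a motif on either strand, the ETS motif in MRPL54 (chr19:3762562-3762681, plus strand, the 120 bases before the start) and the YY1 motif in MRPL32 (chr7:42932126-42932245, plus strand, 250 to 131 bases before the start). The MRPL32 stretch was taken further upstream because no motif lay within the 120 bases before its start.
MRPL54: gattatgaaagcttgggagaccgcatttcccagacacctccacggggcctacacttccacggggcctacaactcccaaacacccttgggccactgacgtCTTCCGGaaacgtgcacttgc
MRPL32: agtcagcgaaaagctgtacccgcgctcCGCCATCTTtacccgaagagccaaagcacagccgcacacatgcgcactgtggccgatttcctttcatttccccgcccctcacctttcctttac

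The largest fall among all members was that of MRPL17, kin of a bacterial protein at the exit of the peptide tunnel. MRPL17 (ENSG00000158042.9) had 45.9 to 56.1 CPM (median 48.7) in the peroxide libraries, against 73.2 to 116 CPM (median 85.5) in the controls, and every peroxide library lay below every control. The fold change was -0.80 ± 0.08 (adjusted p = 4.35e-08). MRPL19, kin of a bacterial protein at the interface of the subunits, had 63.5 to 80.8 CPM (median 67.5) with peroxide, against 71.7 to 108 CPM (median 93.8) in the controls. Part of the peroxide libraries reached into the range of the batch 2 controls. Its fold change was -0.39 ± 0.07 (adjusted p = 0.000146). MRPL36, kin of a small zinc-binding bacterial protein, had 16.8 to 21.9 CPM (median 18.4) with peroxide, against 20.8 to 34.0 CPM (median 24.5) in the controls, and MRPL24, whose bacterial kin binds ribosomal RNA early in assembly, had 54.4 to 65.4 CPM (median 59.0), against 63.4 to 104 CPM (median 71.8). In both genes the groups overlapped only at their edges, and the highest control was the shallowest library, control 2. Fold changes were -0.38 ± 0.09 (adjusted p = 0.00136) and -0.33 ± 0.08 (adjusted p = 0.00183), and neither gene was called in batch 2 alone (adjusted p = 0.0900 and 0.169). The other 6 falls, MRPL28, MRPL20, MRPL12, MRPL23, MRPL58 and MRPL49, had fold changes of -0.16 to -0.31. Upstream sequences of the pair with the largest falls are shown too, each the 120 bases before the start. The NRF1 motif is in capitals in MRPL17 (chr11:6683341-6683460, minus strand), and none of the 4 motifs is in this stretch of MRPL19 (chr2:75646663-75646782, plus strand). As the MRPL32 stretch was placed to hold a motif, the stretches of rises and falls are not a like comparison.
MRPL17: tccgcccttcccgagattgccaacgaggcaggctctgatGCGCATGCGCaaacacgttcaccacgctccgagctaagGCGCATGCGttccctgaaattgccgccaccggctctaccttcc
MRPL19: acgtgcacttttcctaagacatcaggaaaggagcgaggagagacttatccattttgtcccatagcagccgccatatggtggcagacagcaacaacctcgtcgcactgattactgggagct

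**Figure D2:**
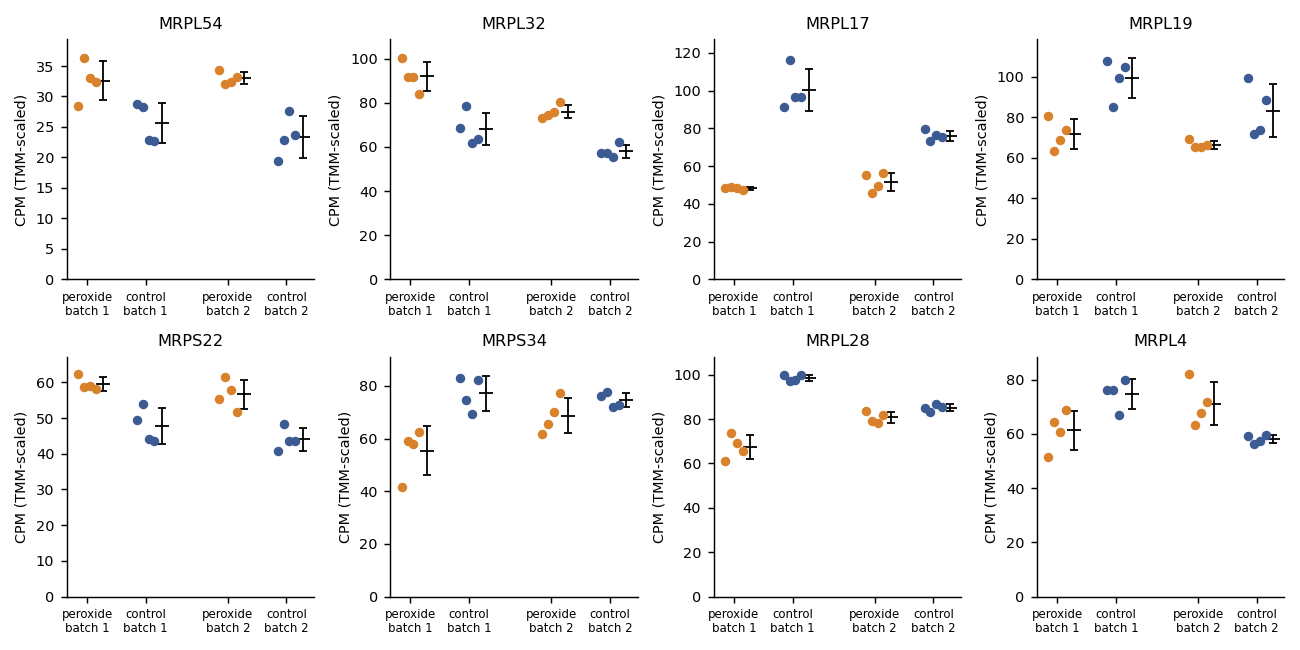
CPM of 8 members (vertical axis, from 0) in each library, with peroxide in orange left of control in blue within each batch, and the mean ± SD of 4 libraries in black. MRPL17 lies lower with peroxide in both batches, MRPL54, MRPL32 and MRPS22 lie higher in both, and MRPL4 lies lower with peroxide in batch 1 and higher in batch 2.

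In the small subunit the fold changes ran between -0.30 ± 0.08 for MRPS34 and 0.34 ± 0.06 for MRPS22. MRPS22 (ENSG00000175110.11), a mitochondria-specific protein in which mutations cause mitochondrial disease, had 51.6 to 62.3 CPM (median 58.4) in the peroxide libraries, against 40.7 to 54.0 CPM (median 43.9) in the controls. A single control reached into the range of the peroxide libraries. The fold change was 0.34 ± 0.06 (adjusted p = 8.49e-05). MRPS36, now assigned to the oxoglutarate dehydrogenase complex rather than the ribosome, had 19.9 to 26.1 CPM (median 22.4) with peroxide, against 13.8 to 24.6 CPM (median 18.6) in the controls, and a fold change of 0.23 ± 0.08 (adjusted p = 0.0192). MRPS35, mitochondria-specific, and MRPS9, whose bacterial kin reaches towards the P-site tRNA, rose by 0.17 and 0.17 on the log2 scale (adjusted p = 0.0153 and 0.0464). The groups overlapped in these 3 genes. MRPS21, the fifth rise of the subunit, had a fold change of 0.16 ± 0.06 (adjusted p = 0.0399). MRPS36, MRPS35 and MRPS9 lost their calls when libraries were scaled by total counts (adjusted p = 0.0816, 0.108 and 0.172) and with no filter on low counts (0.202, 0.260 and 0.283). MRPS21 lost its call in both settings too, which left MRPS22 as the only called rise of the subunit. In batch 1 alone MRPS36, MRPS35 and MRPS9 were uncalled (adjusted p = 0.30, 0.0858 and 0.0722), and in batch 2 alone MRPS35 and MRPS9 were uncalled too (0.142 and 0.422). Without the batch term MRPS36 and MRPS9 lost their calls (adjusted p = 0.122 and 0.0759), as did MRPS36 with GC-content offsets (0.177). The MRPS9 call was lost without any 1 of control 1, 3, 4, 6 or 7 or of peroxide 1, 2, 3, 4, 5 or 8 (edgeR adjusted p 0.0528 to 0.121), and with the library of each group with most non-unique reads left out (0.113).

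Among the falls MRPS34, mitochondria-specific, had 41.7 to 77.3 CPM (median 62.2) in the peroxide libraries, against 69.2 to 83.1 CPM (median 75.4) in the controls, with a fold change of -0.30 ± 0.08 (adjusted p = 0.00552). In batch 1 every peroxide library lay below every control, and in batch 2 the groups overlapped. MRPS16, kin of a bacterial protein needed for small subunit assembly, had 109.7 to 129.5 CPM (median 117) with peroxide, against 128 to 152 CPM (median 137) in the controls, a narrow overlap, and a fold change of -0.22 ± 0.05 (adjusted p = 0.00116). MRPS12, kin of the bacterial protein at the decoding centre, and MRPS10 fell by 0.23 and 0.18 on the log2 scale (adjusted p = 0.0244 and 0.0142). None of the 4 was called in batch 2 alone (adjusted p = 0.239, 0.0518, 0.981 and 0.279 for MRPS34, MRPS16, MRPS12 and MRPS10). MRPS12 lost its call without control 1, peroxide 1 or peroxide 4 (0.0501, 0.0532 and 0.0607), and MRPS10 without the batch term (0.126). The stretches of 120 bases before the starts of MRPS22 (chr3:139343874-139343993, plus strand, 1 of 3 RefSeq windows) and MRPS34 (chr16:1773135-1773254, minus strand) are shown because both the largest rise and the largest fall of the small subunit carry the ETS motif, in capitals, more than once.
MRPS22: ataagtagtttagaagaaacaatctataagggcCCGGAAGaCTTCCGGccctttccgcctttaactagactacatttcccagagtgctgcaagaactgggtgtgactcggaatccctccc
MRPS34: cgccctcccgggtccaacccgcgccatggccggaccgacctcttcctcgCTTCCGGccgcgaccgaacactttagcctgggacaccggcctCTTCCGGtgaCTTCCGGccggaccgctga

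Several members with particular roles did not pass the test or did so narrowly. MRPL12, which also binds the mitochondrial RNA polymerase, had 13.4 to 22.0 CPM (median 17.4) in the peroxide libraries, against 18.02 to 23.8 CPM (median 21.2) in the controls. The groups overlapped. Its fold change was -0.24 ± 0.09 (adjusted p = 0.0336), and the call was lost in batch 2 alone (0.691), without the batch term (0.0745), with the library of each group with most non-unique reads left out (0.0892) and without any 1 of control 1, control 4, peroxide 1, peroxide 2, peroxide 4 or peroxide 6 (edgeR adjusted p 0.0502 to 0.0748). In all, 68.2% of its exon bases in GENCODE release 29 overlap AC139530.2, so its level is uncertain. MRPL58, a peptidyl-tRNA hydrolase built into the large subunit, fell by 0.22 on the log2 scale (SE 0.07, adjusted p = 0.0122), and the call was lost in batch 2 alone (0.277), without the batch term (0.0773) and with the library of each group with most non-unique reads left out (0.0549). MRPL33 had 34.4 to 50.1 CPM (median 44.4) with peroxide, against 31.5 to 59.7 CPM (median 34.1) in the controls, and was not called (fold change 0.18 ± 0.09, adjusted p = 0.0921), but passed without control 2 (0.25, adjusted p = 0.00461). MRPS30, which carries a small subunit name but sits in the large subunit of the human structures, had a fold change of -0.02 ± 0.08 (adjusted p = 0.838).

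The paralogs MRPS18A, MRPS18B and MRPS18C, which descend from the same bacterial protein, had fold changes of -0.07 ± 0.10, 0.13 ± 0.06 and 0.05 ± 0.10, and none passed (adjusted p = 0.584, 0.0831 and 0.727). MRPS18A sits in the large subunit of the structures. Per kilobase of GENCODE release 29 transcript, the level of MRPS18B was 67.3 CPM per kb with peroxide and 61.7 in controls, above that of MRPS18A at 18.6 with peroxide and 19.7 in controls and of MRPS18C at 15.4 with peroxide and 14.9 in controls. The exons of MRPS18A and MRPS18C overlap RSPH9 and ABRAXAS1 over 47.0% and 40.2% of their bases in GENCODE release 29.

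Per length, levels differed far more between members than between groups. MRPL20, kin of a bacterial protein that binds the large ribosomal RNA, was highest at 142 CPM per kb over all 16 libraries, followed by the mitochondria-specific MRPL37 at 118 and MRPL51 at 93.3. MRPS17 was the lowest of the genes with reads, at 3.31 CPM per kb. The members taken for their high CPM were MRPL37, MRPL3, MRPS27 and MRPS16. MRPL37 averaged 176 ± 21.8 CPM with peroxide and 174 ± 7.66 CPM in controls, and MRPL3, whose bacterial kin reaches towards the peptidyl transferase centre, 129 ± 12.3 CPM with peroxide and 125 ± 11.5 CPM in controls (SD, n = 8 each). MRPS27, of the pentatricopeptide repeat type, averaged 146 ± 17.8 CPM with peroxide and 145 ± 17.4 CPM in controls. The fold changes of MRPL37, MRPL3 and MRPS27 were 0.01 ± 0.06, 0.06 ± 0.05 and 0.02 ± 0.06, all uncalled. Within batches MRPL37 differed in direction, with 158 ± 13.1 CPM with peroxide, against 173 ± 10.2 CPM in controls, in batch 1 with overlap, and 194 ± 7.39 CPM, against 175 ± 5.56 CPM, in batch 2 with no overlap (SD, n = 4 each). It was called in neither batch alone (edgeR adjusted p = 0.241 and 0.0569). Annotated pseudogenes of the members (79 symbols) held 1579 reads, 0.222% of the 712103 reads of the members themselves. The share was highest for MRPS31, at 15.9% of its own reads, and for MRPS17, at 4.03%. Reads not aligned uniquely, 38.3% ± 4.33 of counted reads with peroxide and 34.1% ± 5.43 in controls, were counted for no gene, so the levels of both genes are uncertain.

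The summed CPM of the members was about the same in both groups when the batches were pooled, and differed in opposite directions within them. In batch 1 the large subunit summed to 3045 ± 63.4 CPM with peroxide, against 3283 ± 211 CPM in controls, and in batch 2 to 2960.1 ± 120.1 CPM, against 2794 ± 62.2 CPM. The small subunit summed to 1773 ± 44.4 CPM with peroxide, against 1842 ± 122 CPM in controls, in batch 1, and to 1724 ± 71.7 CPM, against 1666 ± 33.8 CPM, in batch 2 (SD, n = 4 each). All members together differed by -0.87% from control with both batches, -5.98% in batch 1 and 5.02% in batch 2. The pooled difference was smaller than the spread between libraries of a group. In batch 1 peroxide and control overlapped for the large and the small subunit, and in batch 2 for both again. The ratio of the large to the small subunit sum in CPM was 1.72 ± 0.0272 with peroxide, against 1.78 ± 0.0118 in controls, in batch 1 and 1.72 ± 0.0285, against 1.68 ± 0.00670, in batch 2. It did not overlap between the groups in batch 1 and did in batch 2. The members held 0.439% to 0.508% of reads in genes with peroxide and 0.461% to 0.537% in controls. This share, which uses no TMM factors, averaged 0.463% with peroxide and 0.487% in controls over both batches. It was 0.449% ± 0.0105, against 0.499% ± 0.0268, in batch 1 and 0.477% ± 0.0215, against 0.474% ± 0.0125, in batch 2. The size of the pooled and of the batch 2 difference thus depended on the scaling.

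**Figure D3:**
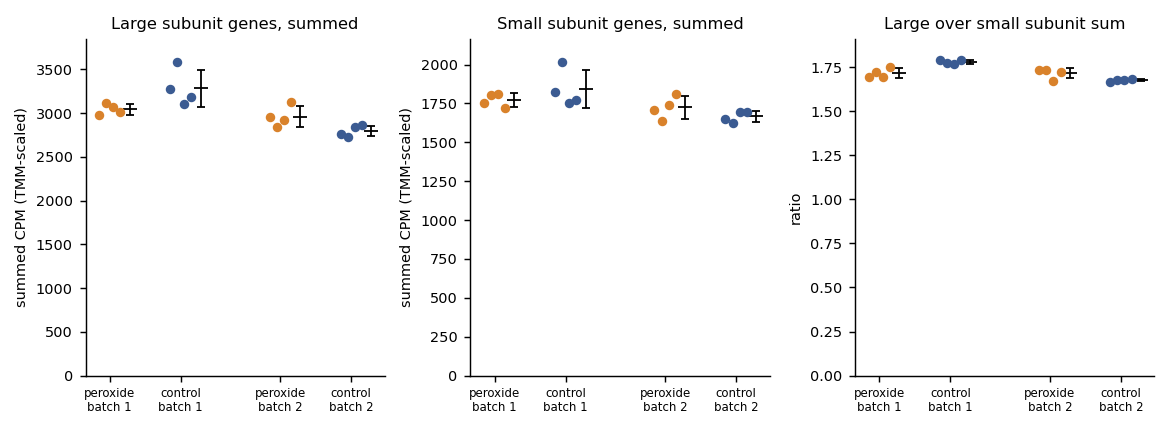
Summed CPM of the large subunit genes, of the small subunit genes and the ratio of the sums (vertical axes, from 0) in each library, with peroxide in orange left of control in blue within each batch, and the mean ± SD of 4 libraries in black. In each panel the mean of the controls is the highest in batch 1 and the lowest in batch 2, with the peroxide means of both batches between them.

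A response that differed between the batches was called about as often among the members as among all genes. The interaction of batch and group was called for 5 of the 77 genes, MRPL4, MRPL17, MRPL28, MRPL27 and MRPS12 (edgeR, Benjamini-Hochberg), and for 4.88% of all genes, where 263 interactions were positive and 425 negative. All 5 were positive, meaning a higher log2 fold change in batch 2. So were 64 of the 77 estimates, against 6781 of 14092 among all genes. Leaving out 1 library gave 2 (peroxide 5) to 12 (peroxide 2) called interactions. MRPL4, whose bacterial kin lines the peptide tunnel, had 61.4 ± 7.27 CPM with peroxide, against 74.8 ± 5.58 CPM in controls, in batch 1 and 71.2 ± 7.99 CPM, against 58.1 ± 1.57 CPM, in batch 2 (SD, n = 4 each). Its fold change was -0.28 in batch 1 and 0.29 in batch 2, a difference of 0.58 (interaction adjusted p = 0.0149), and the gene was called in opposite directions in each batch alone (adjusted p = 0.0365 and 0.0104). MRPL28 had 67.5 ± 5.34 CPM with peroxide, against 98.7 ± 1.44 CPM in controls, in batch 1 with no overlap, and 80.8 ± 2.54 CPM, against 85.2 ± 1.5 CPM, in batch 2 with overlap. Its fold changes differed by 0.47 (adjusted p = 0.00721), and it was uncalled in batch 2 alone (0.344). MRPL17 fell in both, by 1.05 on the log2 scale in batch 1 and 0.56 in batch 2 (difference 0.49, adjusted p = 0.0205). Its peroxide libraries averaged 48.3 ± 0.710 CPM in batch 1 and 51.7 ± 4.87 CPM in batch 2, and its controls 100.2 ± 11.0 CPM and 76.1 ± 2.65 CPM. MRPL27, kin of a bacterial protein by the peptidyl transferase centre, had fold changes of -0.22 in batch 1 and 0.24 in batch 2 (interaction adjusted p = 0.0206), and passed in batch 2 alone (0.0280). MRPS12 had -0.47 in batch 1 and -0.0048 in batch 2 (interaction adjusted p = 0.0426). The MRPS12 interaction lost its call without any 1 of control 1, 2, 4, 5, 6 or 8 or of peroxide 1, 4, 5, 7 or 8 (adjusted p 0.0568 to 0.0964), and those of MRPL17 and MRPL27 without peroxide 5 (0.0515 and 0.0524). With the library of each group with most non-unique reads left out, the interactions of MRPL4, MRPL27 and MRPS12 lost their calls (adjusted p = 0.0724, 0.0835 and 0.161), and with no filter on low counts those of MRPL27 and MRPS12 (0.0527 and 0.0591).

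Across all 77 genes the median log2 fold change was -0.13 in batch 1 and 0.10 in batch 2, while the median over all genes was -0.01 in both. The fold change was positive in 30 members in batch 1 and in 54 in batch 2. Among all 14092 genes it was positive in 6927 in batch 1 and in 6807 in batch 2. The spread between libraries of a group and batch in the members' median was 0.06 on the log2 scale (pooled SD), smaller than either median. In each batch tested alone, 8 members kept the call of the pooled test. The batch term, the difference in level of batch 2 from batch 1 at equal treatment, was called for 38 members, 8 higher and 30 lower in batch 2, against 51.2% of all genes. With libraries scaled by total counts it was 16 higher and 17 lower. The 5 largest, chosen after the values were seen, were -0.72 for MRPS24, -0.70 for MRPS28 and -0.61 for MRPL20 (adjusted p = 0.000383, 0.000175 and 9.08e-07), then -0.54 for MRPL51 and -0.51 for MRPL50 (adjusted p = 4.20e-06 and 1.71e-05). Exons of MRPS28, MRPL51, MRPS24 and MRPL20 overlap other genes over 35.8%, 31.3%, 23.2% and 15.5% of their bases in GENCODE release 29, so these levels are uncertain.

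**Figure D4:**
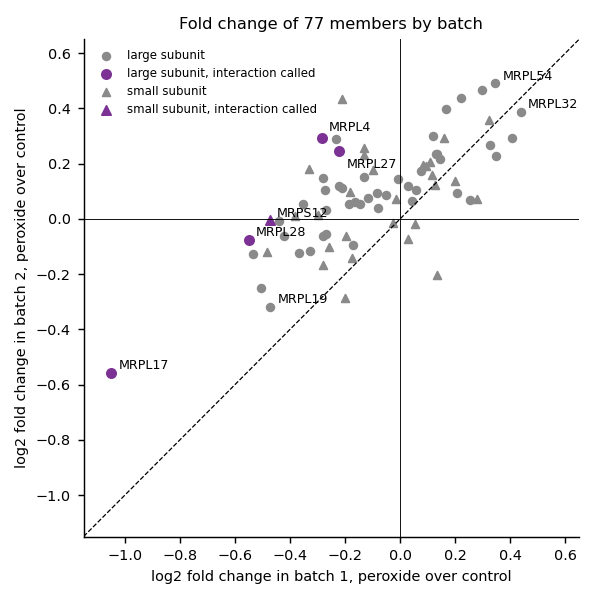
Log2 fold change of peroxide over control in batch 2 (vertical axis) against that in batch 1 (horizontal axis) for the 77 genes tested, circles for the large and triangles for the small subunit, purple where the interaction was called, with the dashed line at equal values. Most points lie above the line, which is 64 of 77 genes, and MRPL4 and MRPL27 lie left of 0 and above 0.

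In batch 1 the fold changes of the members were lower the higher the GC content of their GENCODE release 29 transcripts, a pattern chosen after the values were seen. By the pooled test of both batches, 12 of the 26 members with the lowest GC content (35.0% to 46.4%) rose and 2 fell. Of the 26 with the highest (52.9% to 71.9%), 2 rose and 8 fell. The 25 between had 4 rises and 4 falls. In the same test, 24.3% of all genes with a content in the lowest range rose and 22.8% fell. It was 22.8% and 28.7% in the middle range, and 24.4% and 23.4% in the highest. Median log2 fold changes from low to high content were 0.12, -0.12 and -0.27 in batch 1 and 0.16, 0.09 and 0.05 in batch 2. Spearman's rho of fold change and GC content across the 77 genes was -0.34 with both batches, -0.47 in batch 1 and -0.07 in batch 2. Across 13980 of the genes tested it was 0.01, -0.08 and 0.12. All points share the same 16 libraries and genes are not independent replicates, so these are descriptions. Per library, rho of the members' deviation from their mean and GC content was -0.64 to -0.11 in the 4 peroxide libraries of batch 1, 0.06 to 0.26 in those of batch 2 and 0.06 to 0.30 in the 8 controls. With offsets that remove each library's trend with GC content over all genes, 17 members rose and 17 fell, and the interaction was called for 8. These offsets follow the trend over all genes, where rho of the interaction and GC content was 0.24, against 0.56 in the members. They need not remove the members' own trend. Whether GC content had a part in the difference between batches was not tested.

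**Figure D5:**
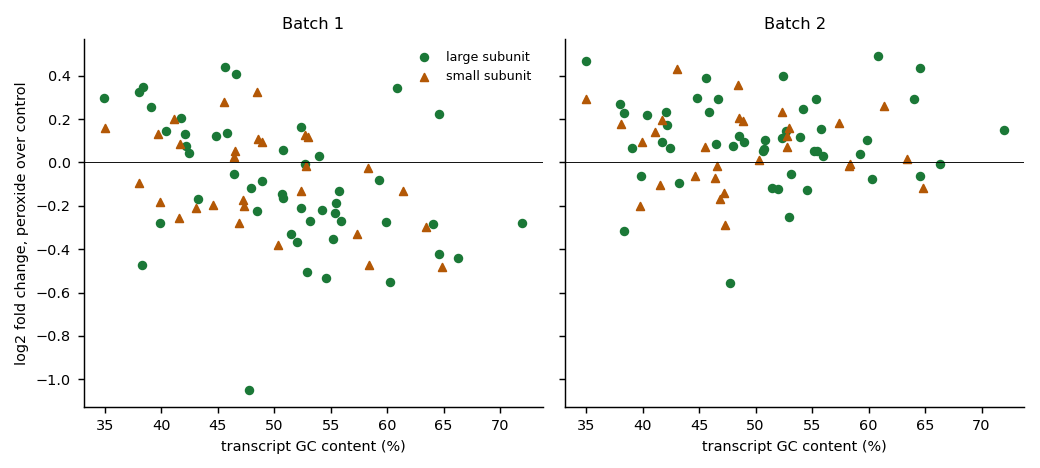
Log2 fold change of peroxide over control (vertical axis) against transcript GC content in percent (horizontal axis) for the 77 genes tested, in batch 1 on the left and batch 2 on the right, green circles for the large and brown triangles for the small subunit. The points slope down in batch 1 (rho -0.47) and show little slope in batch 2 (rho -0.07).

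Ribosomal proteins without an MRP symbol, the factors that build the ribosome and those that run translation also moved in both directions. DAP3, a GTP-binding protein of the small subunit, had 251 to 289.9 CPM (median 263) with peroxide, against 193 to 235 CPM (median 212) in controls, with no overlap, and rose by 0.32 on the log2 scale (adjusted p = 2.15e-05). PTCD3, a pentatricopeptide repeat protein of the small subunit, had 121 to 181 CPM (median 147) with peroxide, against 138 to 182 CPM (median 161) in controls (fold change -0.15 ± 0.05, adjusted p = 0.0224), and its call was lost without peroxide 7 (0.0514), without the batch term (0.278) and in batch 1 alone (0.462). The other 3 of this list of 5 were uncalled. Of 27 tested factors of assembly and ribosomal RNA modification 3 rose and 9 fell, with a median of -0.11. MRM1, a methyltransferase of the large ribosomal RNA, had 11.9 to 23.7 CPM (median 16.8) with peroxide, against 24.0 to 37.7 CPM (median 30.1) in controls, and fell by 0.78 on the log2 scale (adjusted p = 6.15e-05). RPUSD4, which makes pseudouridine in the same RNA, rose by 0.46 (adjusted p = 3.99e-06), and MTERF4, a partner of the methyltransferase NSUN4, fell by 0.37 (adjusted p = 8.68e-05). Of 15 translation factors 2 rose and 2 fell. MTRFR, of the release factor family that rescues stalled ribosomes, had 56.0 to 87.0 CPM (median 69.2) with peroxide, against 30.2 to 45.0 CPM (median 40.3) in controls, and rose by 0.81 (adjusted p = 3.09e-07), with fold changes of 1.09 in batch 1 and 0.54 in batch 2 (interaction adjusted p = 0.0311). MTFMT, which formylates the initiator methionyl-tRNA, fell by 0.32 (adjusted p = 0.000955) and was uncalled in batch 2 alone (0.0534).

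Most cytosolic ribosomal protein genes rose and most genes of mitochondrial DNA fell. Of 85 cytosolic ribosomal protein genes tested 78 rose and 0 fell, with a median log2 fold change of 0.37, on counts that leave out reads shared with near-identical copies. The summed CPM of the mitochondrial ribosomal proteins over that of the cytosolic ones was 0.104 ± 0.00821 with peroxide and 0.136 ± 0.00761 in controls (SD, n = 8 each), with ranges of 0.0880 to 0.111 and 0.122 to 0.144 that did not overlap. Of the 13 protein genes of mitochondrial DNA 1 rose and 10 fell, with a median of -0.63. MT-ND5, a subunit of respiratory complex I, had 374 to 662 CPM (median 526) with peroxide, against 1899 to 3331 CPM (median 2765) in controls, and MT-CO1, a subunit of complex IV, 498 to 1148 CPM (median 841), against 2616 to 3582 CPM (median 3238). Neither overlapped between groups (adjusted p = 1.13e-12 and 1.90e-12). Counts of the mitochondrial ribosomal RNAs are of reads that the library preparation and unique alignment kept. How far they follow the levels of these RNAs in the cells was not tested. MT-RNR2, the RNA of the large ribosomal subunit, had 758 to 2318 CPM (median 1065) with peroxide, against 1672 to 3123 CPM (median 2283) in controls. Its fold change was -0.99 ± 0.19 (adjusted p = 0.000197), and it was uncalled in batch 2 alone (0.112). MT-RNR1, the RNA of the small subunit, had 618 to 2333 CPM (median 946) with peroxide, against 425 to 1117 CPM (median 795) in controls. It was not called (fold change 0.52 ± 0.25, adjusted p = 0.0932). Its fold change was -0.25 in batch 1 and 1.29 in batch 2 (interaction adjusted p = 0.0199), an interaction lost with the library of each group with most non-unique reads left out (0.0552). It passed without peroxide 3 (adjusted p = 0.0435), in batch 2 alone (0.00308) and with no filter on low counts (9.98e-11).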

How the data were processed

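RNA-seq libraries of Jurkat E6-1 cells were made from RNA isolated with TRIzol and an Illumina TruSeq kit, per the labels' protocols. The authors deposited raw counts, whole numbers of reads for each gene and library. STAR 2.7.1a, HTSeq 0.6.1 and hg19 are named in the submitters' processing notes. The sources used here do not give the counting mode, strand setting or annotation, so a gene and its overlapping or antisense partner cannot be told apart in these counts, and no coordinates of the count tables are printed. Gene symbols were matched for 60357 of 60662 identifiers.

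Lines that name no gene stayed out of library sizes. Counts were filtered with filterByExpr on group, which kept 14092 genes and 99.6% of reads in genes, scaled with TMM and tested with edgeR 4.0.16 (R 4.3.3), quasi-likelihood, with batch and group as terms, and again with their interaction. P-values were adjusted by Benjamini-Hochberg over all genes and called under 0.05. SE is the size of the fold change over the square root of F. Levels are CPM after TMM. The procedure was tested on simulated data. Transcript length, GC content and exon overlap came from GENCODE release 29, which held 16 of the 78 identifiers at the same version, and promoters from RefSeq (GRCh38.p14). Alternatives were DESeq2 1.42.0, other scalings and filters, each batch alone, no batch term, a replicate block, each library left out and, added after seeing the data, GC-content offsets and leaving out the library of each group with most non-unique reads.

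The members and lists were chosen with earlier results of these data known. Genes named are, per subunit, the 4 largest called rises and falls with the same sign in both batches and a mean of 5 CPM or more, the 2 with the highest CPM, every gene with a called interaction, the MRPS18 paralogs, MRPL12, MRPL58, MRPS30, MRPL33 and MRPS12, and up to 3 genes of smallest p per other list; others are marked where named. Replicates of a group and batch differed beyond counting noise (chi-square per degree of freedom 2.97 to 18.2). Counts limit the precision of low genes most.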

Additional observations from a re-analysis of the deposited data

Results flagged for a closer look

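Of 64 sets of 8 libraries, each the values of 1 named member or summed level in 1 group, 4 had a library far from the others, where chance gives about 1 in 20. All 4 were control 2, the library with the fewest reads in genes (5556553). MRPL36 had 34.0 CPM in control 2 and 20.8 to 25.9 CPM in the other 7 controls. MRPL24 had 104.3 CPM there, against 63.4 to 80.4 CPM in the others. MRPS18A had 28.3 CPM, against 17.5 to 21.8 CPM, and MRPL33 59.7 CPM, against 31.5 to 43.3 CPM. Without control 2 the MRPL33 rise was called (adjusted p = 0.00461), and the other 3 kept their calls or stayed uncalled.

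The response differed between the batches by the interaction test in 5 members (edgeR, Benjamini-Hochberg). The log2 fold change was higher in batch 2 by 0.58 for MRPL4, 0.49 for MRPL17, 0.47 for MRPL28, 0.47 for MRPS12 and 0.46 for MRPL27.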

How the results depend on the processing

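Over 28 settings, the reported one included, 7 members kept their call in each (MRPL32, MRPL45, MRPL47, MRPL54 and MRPS22 higher, MRPL17 and MRPL19 lower), and 12 did so in each but the single batches. Scaling by total counts, which moved the median of all genes to -0.08, gave 7 higher and 23 lower members, with 6 higher in the large subunit, 1 higher and 9 lower in the small, and for the batch term 16 higher and 17 lower. No filter on low counts gave 7 higher (6 large, 1 small), 3 interactions and 5150 genes higher among all. No batch term gave 8 higher and 8 lower (6 and 5 large, 2 higher small). Batch 1 alone gave 6 higher (5 large, 1 small) with medians of -0.13, -0.14 for large and -0.10 for small, and MRPL4 at -0.29 (adjusted p = 0.0365), the reverse of its pooled sign. Batch 2 alone gave 2 lower (2 large, 0 small) and medians of 0.10 and 0.10 for large. Sums differed by -5.98% and 5.02% in batches 1 and 2, the large subunit by -7.24% and 5.93% and the ratio of subunits by -3.62% and 2.39%. Without both libraries of most non-unique reads, 6 large members were lower, 3 small higher and 2 interactions called. GC-content offsets gave 8 interactions. The cause of these differences was not tested.

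Leaving out each library gave 12 (control 1) to 21 members higher, 10 to 20 lower, 9 to 14 large higher, 7 to 13 large lower, 3 to 7 small higher, 3 to 7 (peroxide 8) small lower and 2 (peroxide 5) to 12 (peroxide 2) interactions. Small subunit rises numbered 3 without any 1 of control 1, 3, 4, 6 or 7 or of peroxide 2, 5 or 8. Libraries with the same replicate number had correlations of -0.15 to 0.17, and 7 of 16 libraries were highest with their own number. Whether this differs from chance was not tested. With a replicate block 15 members were higher and 13 lower, and MRPL12 and MRPS9 were uncalled (adjusted p = 0.0586 and 0.0620). Over 43 named genes and 27 settings, 1086 of 1161 values kept their side of the threshold. A change of sign in a gene that stayed uncalled was not counted. At this depth small changes of low genes such as MRPS17 and MRPS24 were not detectable.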

Other observations

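Some called members of the large subunit outside the naming rule were chosen after their values were seen. MRPL38 had a log2 fold change of 0.33 ± 0.11 (SE, edgeR adjusted p = 0.0189), MRPL47 0.30 ± 0.05 (adjusted p = 7.51e-05) and MRPL42 0.29 ± 0.07 (adjusted p = 0.00299). The calls of MRPL38 and MRPL42 were lost in some settings other than the single batches. In GENCODE release 29, 41.1% of the exon bases of MRPL38 overlap AC087289.2 and AC087289.3, so its level is uncertain. MRPL47, kin of a bacterial protein at the tunnel exit, had 74.5 to 97.3 CPM (median 86.8) with peroxide, against 63.4 to 82.7 CPM (median 68.1) in controls, and the groups overlapped. MRPL20 fell by 0.25 on the log2 scale (SE 0.07, adjusted p = 0.00846), with 73.4 to 113.8 CPM (median 89.99) with peroxide, against 74.9 to 172 CPM (median 104) in controls. In both groups the MRPL20 level was higher in batch 1: 108 ± 6.80 CPM with peroxide and 139.6 ± 23.6 CPM in controls, against 76.9 ± 3.54 CPM and 83.8 ± 7.13 CPM in batch 2 (SD, n = 4 each).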
